A study of Mus musculus with 10 samples.

Results

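The subcortical maternal complex is a protein assembly under the membrane of the mouse oocyte and early embryo, and 5 of its genes are described here: Nlrp5, Ooep, Tle6, Padi6 and Zbed3. H3K4me3, the trimethylation of lysine 4 of histone H3, was measured in consecutive 5 kb windows along the genome, and the windows of these genes were those to which the deposited table assigned one of the 5 gene names. This gave 22 of 544879 windows, of which 12 were assigned to Nlrp5, 1 to Ooep, 2 to Tle6, 4 to Padi6 and 3 to Zbed3. The window that holds the annotated transcription start site (TSS) of Zbed3 carried no gene name in the table, so it is not among the 22 and is given beside them.

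The samples were pools of about 200 germinal vesicle (GV) oocytes, the fully grown oocytes of the ovary before meiosis resumes, from 21-day-old females of strain C57BL6 in the labels, which the study's methods give as C57BL/6OlaHsd. Oocytes of Setd1b floxed/floxed, Gdf9-Cre positive females (Setd1b cKO) were compared with those of Setd1b floxed/floxed, Gdf9-Cre negative females (Setd1b WT), with 3 libraries each by ultra-low-input native ChIP-seq. Both groups carried the floxed allele, and Gdf9-Cre acts in the oocyte from early follicle growth onwards, so the follicle cells around it were not targeted. The methods of the study also allow Cre-positive females with 1 intact allele among the WT, which the labels do not separate. Input chromatin came from 2 libraries of each genotype. The comparison asks how loss of SETD1B in the oocyte alters H3K4me3 at these genes.

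The complex is needed for the first cleavages of the embryo, and its genes belong to the maternal-effect class: the mother's gene product, stored in the oocyte, serves the embryo before its own genome is active. NLRP5 (also called MATER), OOEP (FLOPED) and TLE6 form its core, PADI6 is required for the cytoplasmic lattices of the oocyte, and ZBED3 is a zinc finger protein that joins the complex. H3K4me3 marks the promoters of active genes, and in growing oocytes it also spreads into broad domains outside promoters. SETD1B is one of the enzymes that place it, in a complex whose subunit CXXC1 binds unmethylated CpG dinucleotides.

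The 250 bases upstream of the RefSeq start of each gene (GRCm38.p6, read 5′ to 3′ on the strand of the gene) are shown because the windows that hold the starts of Nlrp5, Tle6, Padi6 and Zbed3 had larger differences than the other windows of these genes, with CpG dinucleotides in capitals.
Nlrp5: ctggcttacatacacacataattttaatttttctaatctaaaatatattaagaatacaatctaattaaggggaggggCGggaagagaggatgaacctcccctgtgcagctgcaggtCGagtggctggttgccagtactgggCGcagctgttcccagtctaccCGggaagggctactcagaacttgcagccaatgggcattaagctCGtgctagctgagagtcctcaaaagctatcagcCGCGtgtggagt
Ooep: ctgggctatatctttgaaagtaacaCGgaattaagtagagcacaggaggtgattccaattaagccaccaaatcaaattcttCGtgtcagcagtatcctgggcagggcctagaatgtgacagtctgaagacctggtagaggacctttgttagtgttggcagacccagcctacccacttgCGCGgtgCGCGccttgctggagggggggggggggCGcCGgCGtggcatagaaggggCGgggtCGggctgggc
Tle6: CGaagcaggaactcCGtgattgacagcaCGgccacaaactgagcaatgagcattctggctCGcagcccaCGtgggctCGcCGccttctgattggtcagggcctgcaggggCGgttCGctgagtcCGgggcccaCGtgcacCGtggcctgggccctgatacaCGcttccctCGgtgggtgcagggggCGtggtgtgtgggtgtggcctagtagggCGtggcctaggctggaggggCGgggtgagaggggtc
Padi6: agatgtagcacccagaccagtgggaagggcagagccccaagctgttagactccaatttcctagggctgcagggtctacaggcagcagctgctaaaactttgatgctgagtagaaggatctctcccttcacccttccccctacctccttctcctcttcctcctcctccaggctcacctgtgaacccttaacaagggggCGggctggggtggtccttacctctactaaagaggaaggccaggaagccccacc
Zbed3: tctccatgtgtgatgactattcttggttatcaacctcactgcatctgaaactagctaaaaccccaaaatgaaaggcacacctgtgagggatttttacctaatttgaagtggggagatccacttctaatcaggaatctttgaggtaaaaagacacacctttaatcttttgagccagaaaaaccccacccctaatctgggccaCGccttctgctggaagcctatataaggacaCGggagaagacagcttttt

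These stretches lie at chr7:23385639-23385888 (plus strand) for Nlrp5, chr9:78378589-78378838 (minus strand) for Ooep, chr10:81600901-81601150 (minus strand) for Tle6, chr4:140742644-140742893 (minus strand) for Padi6 and chr13:95323355-95323604 (plus strand) for Zbed3. The RefSeq and GENCODE M21 starts were identical for Nlrp5 and Padi6, and stood 7 bases apart for Zbed3, 137 for Ooep and 173 for Tle6. For Ooep and Tle6 the RefSeq start is the downstream one, so 137 and 173 of the bases shown lie within the GENCODE gene. Of several RefSeq starts of Nlrp5, Tle6 and Zbed3, the one nearest to the GENCODE start was taken. The 5 promoters differed widely in CpG content. Tle6 held 17 CpGs, Ooep 11, Nlrp5 7, Zbed3 2 and Padi6 1, against a median of 6 over 32851 RefSeq promoters. An E-box (CANNTG, the element bound by the oocyte factor FIGLA and by many other factors) was present in all 5, and in 66.2% of all promoters. The letters GGGCGG (a GC box, searched on both strands) were found in 4 of 5, all but Zbed3, and in 32.7% of all promoters. CCAAT, on either strand, was also found in all but Zbed3, and in 33.8% of all promoters. TAATTG, the element bound by the oocyte factor NOBOX, was found on either strand only in Ooep, and in 7.17% of all promoters. These matches are letters in a fixed stretch and are not evidence of binding.

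The deposited values are RPKM of each window after an enrichment normalization that set the libraries to a common scale. A value of 0 is therefore not an absence of reads, and differences rather than folds are given on this scale. The 6 H3K4me3 libraries held between 10856015 and 32775874 reads in the windows, and the 4 inputs between 20756128 and 26566505. Differences are cKO minus WT with the standard error from limma fitted on all 544879 windows, and adjusted p-values are Benjamini-Hochberg over all of them. A window was called at an adjusted p under 0.05. H3K4me3 in the libraries labelled cKO does not show the deletion of Setd1b itself. The window of the Setd1b TSS, which the table assigns to AI480526, was lower in the cKO, at 4.36 ± 0.385 against 7.11 ± 0.861 (SD, n = 3 each), and was called (difference -2.74, limma adjusted p = 0.0332), though not by edgeR (adjusted p = 0.446), and in 1 of 6 fits without a library, of which 4 called at most 1 window in the genome. The TSS windows of 10 oocyte markers had WT means of 4.28 to 7.79.

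Loss of SETD1B went with lower H3K4me3 at the TSS windows of Nlrp5, Tle6, Padi6 and Zbed3 in every library, whereas the libraries of the genotypes overlapped at Ooep. None of the 5 differences passed the adjusted threshold in limma without an intensity trend, so these are values and not calls. The windows away from the TSS showed no common direction.

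Nlrp5 (ENSMUSG00000015721) encodes an NLR family protein of the complex core. Its TSS lies in the window chr7:23385001-23390000, of which 4112 bases are gene, 67 of them exonic and 4045 intronic. In this window H3K4me3 was 6.51, 7.26 and 6.80 normalized RPKM in WT replicates 1, 2 and 4, and 4.33, 5.19 and 5.28 in cKO replicates 1, 3 and 4. Each cKO library was below each WT library. The difference was -1.92 ± 0.392 (SE), which just missed the threshold (limma adjusted p = 0.0522).

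Tle6 (ENSMUSG00000034758) encodes a Groucho-family co-repressor relative that serves as a core component. Its TSS window, chr10:81600001-81605000, held 1073 bases of the gene, 279 of them exonic. H3K4me3 there was 7.14, 8.62 and 6.95 normalized RPKM in the WT libraries and 4.61, 4.27 and 6.48 in the cKO libraries. The genotypes did not overlap, although cKO replicate 4 came close to the lowest WT library. The difference was -2.45 ± 0.629 (SE), with a limma adjusted p of 0.0965.

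Padi6 (ENSMUSG00000040935) encodes an oocyte member of the peptidylarginine deiminase family. Its TSS window, chr4:140740001-140745000, held 2643 bases of the gene, 596 of them exonic. H3K4me3 there was 7.98, 7.94 and 6.95 normalized RPKM in the WT and 5.50, 6.11 and 3.88 in the cKO. All cKO libraries were below all WT libraries, by a difference of -2.46 ± 0.564 (SE), about that of Tle6 (limma adjusted p = 0.0719).

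Zbed3 (ENSMUSG00000041995) had its TSS in the window chr13:95320001-95325000, the one without a gene name, of which 1389 bases are gene and 159 exonic. The WT libraries stood at 6.25, 5.61 and 7.49 normalized RPKM and the cKO libraries at 4.33, 5.06 and 4.94. The groups did not overlap, and the difference was -1.67 ± 0.490 (SE) with a limma adjusted p of 0.137.

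Ooep (ENSMUSG00000032346), a KH-domain protein of the core, has a single window, chr9:78375001-78380000, which holds the whole gene of 2617 bases. H3K4me3 there was 6.67, 6.19 and 5.55 normalized RPKM in the WT and 6.0, 7.04 and 5.09 in the cKO. The highest library and the lowest library were both cKO. The difference was -0.094 ± 0.516 (SE, limma adjusted p = 0.940), an error that leaves room for a sizeable change in either direction. Its sign was not stable, being positive without cKO replicate 4 (0.38) and without WT replicate 1 (0.17).

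**Figure D1:**
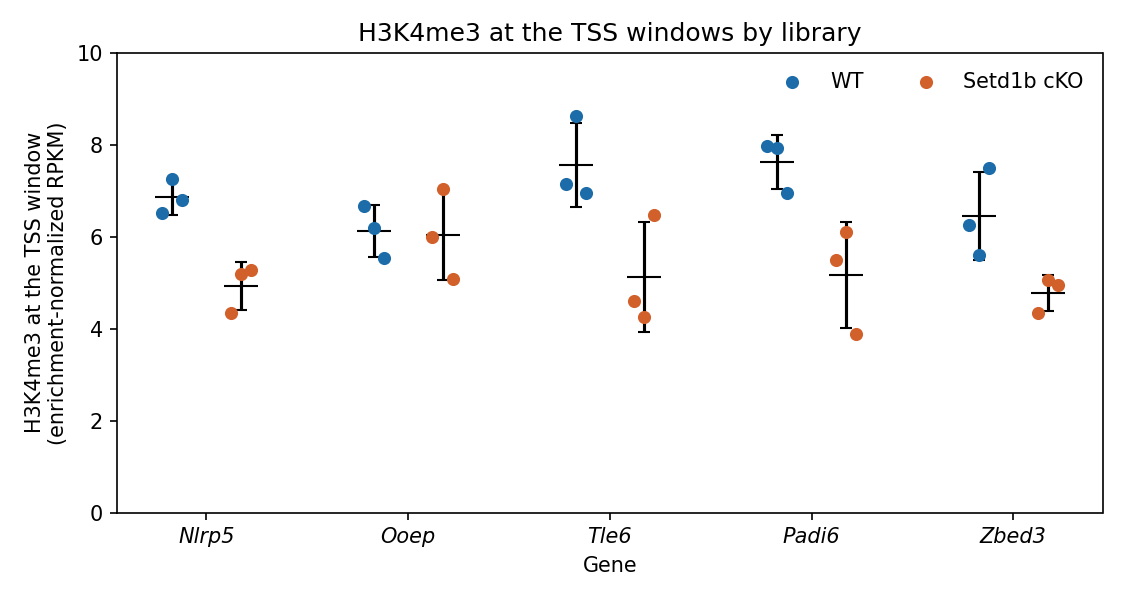
H3K4me3 (enrichment-normalized RPKM, y axis) at the TSS window of each gene (x axis), with 1 point per library, the group mean as a horizontal bar and the SD as error bar (n = 3 per genotype). The cKO points lie below all WT points at Nlrp5, Tle6, Padi6 and Zbed3 and spread to both sides of the WT points at Ooep.

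Ooep was then set against the other members, a contrast chosen after these values were seen. The mean of the other 4 TSS windows was 7.13 ± 0.204 normalized RPKM in the WT and 5.0 ± 0.264 in the cKO (SD, n = 3 each). Ooep was 0.991 ± 0.622 below that mean in the WT (-0.991) and 1.04 ± 0.997 above it in the cKO. Since Ooep was singled out for this pattern, the values are a description and carry no test.

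In the WT the levels at the TSS windows ran from Padi6 (7.62 ± 0.581) through Tle6 (7.57 ± 0.914), Nlrp5 (6.86 ± 0.377) and Zbed3 (6.45 ± 0.959) to Ooep (6.14 ± 0.564, all SD, n = 3). In the cKO the order was Ooep (6.04 ± 0.977), Padi6 (5.16 ± 1.15), Tle6 (5.12 ± 1.19), Nlrp5 (4.93 ± 0.522) and Zbed3 (4.78 ± 0.389). Each pair of neighbours in either order overlapped between libraries, and no gap between WT or cKO neighbours exceeded the larger SD of the pair. Ranked among the TSS windows of protein-coding genes of the same genotype, Padi6 stood at percentile 98.2 in the WT and 72.9 in the cKO, and Tle6 at 98.1 and 71.9. Nlrp5 stood at 94.8 and 68.3, and Zbed3 at 92.1 and 65.0. Ooep stood at 89.3 and 88.4.

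Of all windows, 0.454% were called as lower in the cKO and 0.563% as higher, and of the TSS windows of protein-coding genes 0.75% were called as lower. Of the 22 member windows, limma called 0 in either direction, and 3 had an unadjusted p under 0.05, where 14.9% of all windows had one. With no overlap between genotypes, 4 of the 22 windows were lower in the cKO and 0 higher, against 9.95% and 9.88% of all windows. Of the 5 TSS windows, 4 were lower without overlap, against 8.99% of the TSS windows of protein-coding genes. The median difference of the 5 was -1.92, beside 0.094 over the protein-coding TSS windows. An intensity-dependent prior in limma called the TSS windows of Tle6 (adjusted p = 0.0306) and Padi6 (adjusted p = 0.0252) as lower. It called 2.01% of all windows as lower and 1.57% as higher. The fit without that prior called a smaller share of windows than the study reports as changed. The edgeR quasi-likelihood test on reads called none of the 5 (adjusted p from 0.548 to 0.864), and 1.22% of all windows tested as lower.

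The read counts behind these values are modest. The Nlrp5 TSS window held 109, 75 and 217 reads in the WT libraries and 64, 47 and 124 in the cKO libraries. Over all 5 TSS windows and 6 libraries the counts ran from 40 to 240 reads. Divided by the mean input, RPM (reads scaled to the reads of the library) at Nlrp5 were 3.50 ± 0.439 times input in the WT and 2.12 ± 0.263 times in the cKO (SD, n = 3). At Padi6 the ratio was 4.61 ± 1.09 against 2.69 ± 0.955, at Tle6 4.01 ± 0.617 against 2.30 ± 0.552, and at Zbed3 3.99 ± 0.789 against 2.50 ± 0.361. On this scale the cKO level was 0.605 of the WT level at Nlrp5, 0.583 at Padi6, 0.574 at Tle6 and 0.626 at Zbed3, each with an exact permutation p of 0.1. At Ooep the ratio was 3.35 ± 0.873 in the WT and 2.81 ± 0.840 in the cKO (0.840 of WT, exact permutation p = 0.5). All 5 TSS windows were thus above input in both genotypes.

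Away from the TSS, the differences between genotypes were smaller and of mixed sign. The 18 other member windows had differences between -0.886 and 0.733 normalized RPKM, with 9 higher and 9 lower in the cKO, and 0 with an unadjusted p under 0.05 by limma. In 1 of them, 11.6 kb into Nlrp5, each cKO library was below each WT library. Of all windows, 9.95% were lower without overlap and 14.9% had an unadjusted p under 0.05 by limma. Along the 11 downstream windows of Nlrp5 the mean was 1.43 ± 0.0786 in the WT and 1.30 ± 0.0416 in the cKO (SD, n = 3), without overlap (exact permutation p = 0.1, the smallest that 3 against 3 libraries allow). The largest of these differences, -0.886, was in the window next to the TSS. Both means over the 11 windows lay near 1.23, the 40th percentile of each library. As RPM over input, most of the 11 windows were higher in the cKO, so the lower mean depended on the scale. The 3 further windows of Padi6 averaged 2.17 ± 0.404 in the WT and 2.35 ± 0.634 in the cKO. The 3 named windows of Zbed3 averaged 2.07 ± 0.231 and 2.26 ± 0.495. The first of them, where other Zbed3 transcripts begin, was level at 3.63 ± 1.05 and 3.73 ± 1.26.

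The height of the TSS window over the other windows of the same gene was compared within each library, which removes a shift common to the locus. For Nlrp5 this step was 5.42 ± 0.456 normalized RPKM in the WT and 3.63 ± 0.486 in the cKO (SD, n = 3). For Padi6 it was 5.46 ± 0.733 and 2.82 ± 1.05, and for Zbed3 4.38 ± 1.17 and 2.52 ± 0.294. For these 3 genes each cKO library had a smaller step than each WT library (exact permutation p = 0.1, the smallest possible). For Tle6, with only 1 other window, the step was 4.48 ± 0.876 and 2.42 ± 2.07, and the libraries overlapped (exact permutation p = 0.2). Without cKO replicate 3 the difference in this step went from -2.05 to -0.907.

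Averaged over all named windows of a gene, H3K4me3 was lower in the cKO for Nlrp5 (1.61 ± 0.0791 against 1.89 ± 0.0407) and Tle6 (3.91 ± 0.696 against 5.33 ± 0.490), without overlap in both (exact permutation p = 0.1). The Tle6 difference of -1.43 was -0.939 over all windows that overlap the gene. For Padi6 the means were 3.05 ± 0.652 in the cKO and 3.53 ± 0.325 in the WT (exact permutation p = 0.3). This difference of -0.479 was -0.855 without cKO replicate 3, -0.309 without cKO replicate 1, -0.273 without cKO replicate 4 and -0.292 without WT replicate 2. For Zbed3 they were 2.26 and 2.07 (exact permutation p = 0.7), an average that leaves out its TSS window and was lower in the cKO once that window was included (difference -0.276).

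**Figure D2:**
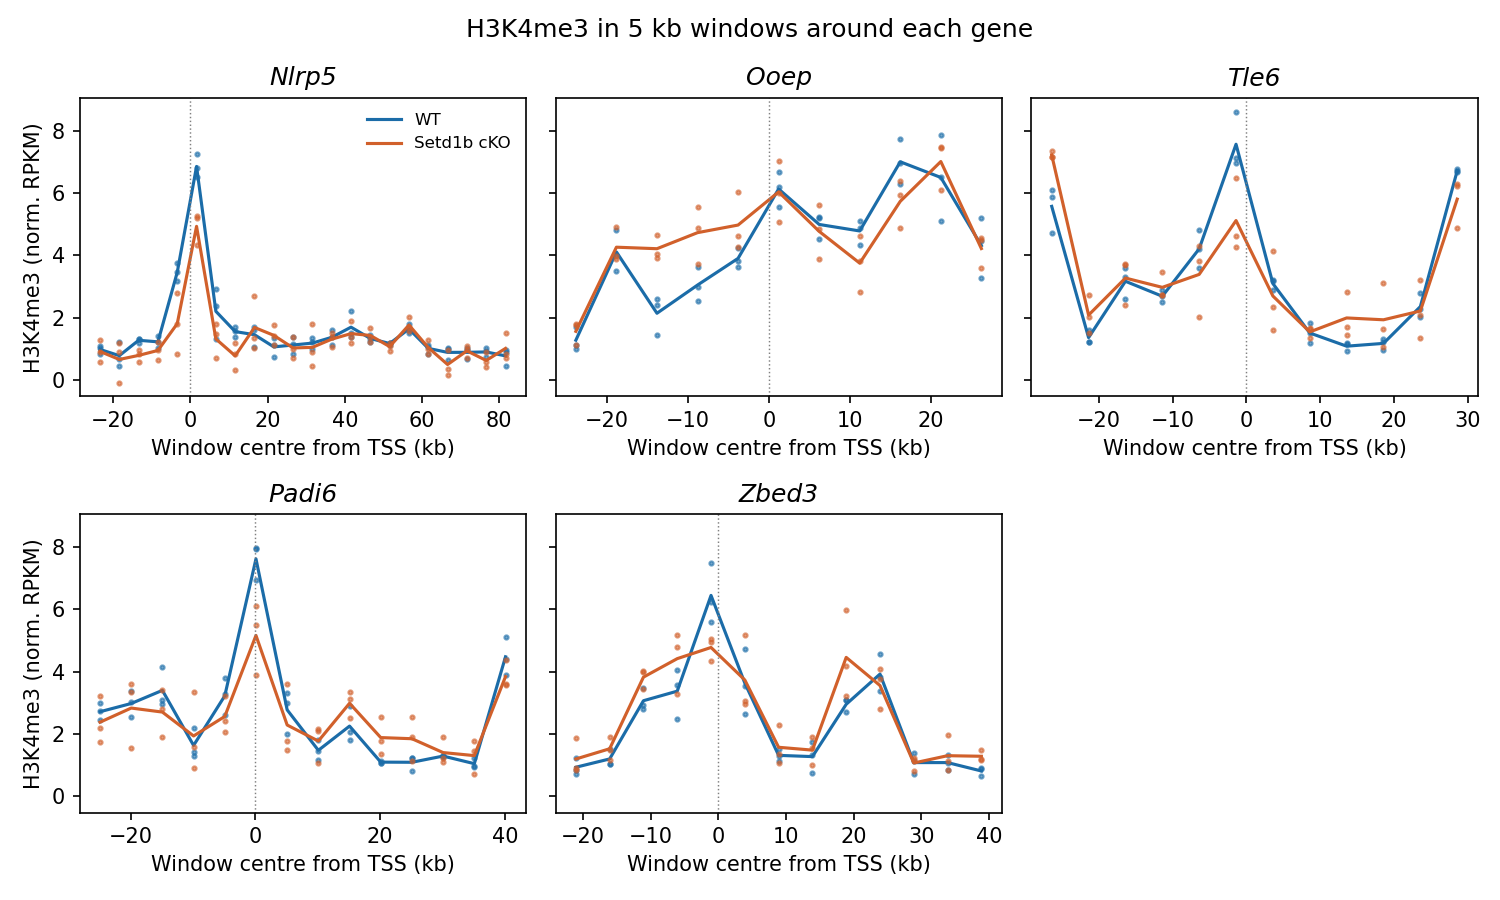
H3K4me3 (normalized RPKM, y axis) in 5 kb windows against the distance of the window centre from the TSS (kb, x axis, positive in the direction of transcription), with points for libraries and lines for genotype means. A peak at the TSS was lower in the cKO at Nlrp5, Tle6, Padi6 and Zbed3, while the Ooep window, where the libraries of the genotypes overlapped, was above both adjacent windows and lay in a wide stretch of H3K4me3.

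The surroundings of the genes differed as well. The 10 windows within 25 kb of the Ooep TSS window averaged 4.21 ± 0.0533 in the WT, with values up to 7.01, and 4.53 ± 0.286 in the cKO, and 5 of them were at or above the 90th percentile of all windows in each genotype. At Nlrp5 the same average was 1.51 ± 0.111, at Padi6 2.26 ± 0.241, at Zbed3 2.31 ± 0.0744 and at Tle6 2.62 ± 0.0529. The run of adjoining windows above that percentile was 6 windows long at Ooep in the WT (chr9:78350001-78380000) and 4 in the cKO (chr9:78370001-78390000). The cKO run thus reached further upstream and less far downstream. Its 2 upstream windows rose from 3.91 and 3.05 in the WT to 4.98 and 4.73 in the cKO. The Dppa5a window downstream fell from 4.79 to 3.75, and the outermost WT window, at 4.314, lay just above the limit of 4.312. At Nlrp5, Tle6 and Padi6 the run was the TSS window alone in both genotypes, and at Zbed3 it was 1 window in the WT and 2 in the cKO.

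Upstream of Ooep, 3 windows in a row were higher in every cKO library than in every WT library. The third, in 4930542C12Rik, rose from 2.14 ± 0.617 to 4.22 ± 0.391 (SD, n = 3) and was called (difference 2.07, limma adjusted p = 0.0493). The call was not made by edgeR (adjusted p = 0.114), and was kept in 1 of 6 fits without a library. Upstream of Nlrp5 the adjacent window was lower in all cKO libraries than in any WT library, at 1.81 ± 0.974 against 3.46 ± 0.291, without passing the test (limma adjusted p = 0.137). Over the 10 flanking windows the difference was -0.376 at Nlrp5 (exact permutation p = 0.1) and between 0.055 and 0.451 at the other 4 genes (exact permutation p from 0.3 to 1.0).

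The CpG content of the whole TSS window followed another order than that of the promoter. Tle6 had 94 CpGs in its 5 kb, Ooep 77, Padi6 75, Zbed3 71 and Nlrp5 54. Ooep, where the genotypes overlapped, was second in this order.

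Other components of the complex and NLRP genes of the oocyte were examined at their TSS windows. Of 7 such genes, 2 were called as lower in the cKO and 0 as higher, and 4 were lower without overlap, with a median difference of -2.17. Of the protein-coding TSS windows, 0.75% were called as lower and 8.99% were lower without overlap. Nlrp9c fell from 6.91 ± 0.879 to 3.75 ± 0.566 (SD, n = 3, limma adjusted p = 0.0275), and Nlrp2 from 6.09 ± 0.754 to 3.54 ± 0.514 (limma adjusted p = 0.0379). Neither call was made by edgeR (adjusted p = 0.278 and 0.289), and leaving out 1 library kept the call of Nlrp9c in 2 of 6 fits and that of Nlrp2 in 1. Nlrp14 had the largest difference, -3.25 ± 0.765 (SE), but was not called (limma adjusted p = 0.0773). Khdc3 (2410004A20Rik in the table), which encodes FILIA, a further component, stood at 7.45, 9.30 and 6.23 in the WT and 5.11, 6.25 and 5.62 in the cKO, with overlap (limma adjusted p = 0.190). The start of the Nlrp9b record lay in a window that holds 3536 bases of the gene but was assigned to Ceacam20. Its value may therefore not describe Nlrp9b alone. The called Nlrp2 window was also shared, with Gm5065 and Gm45147.

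**Figure D3:**
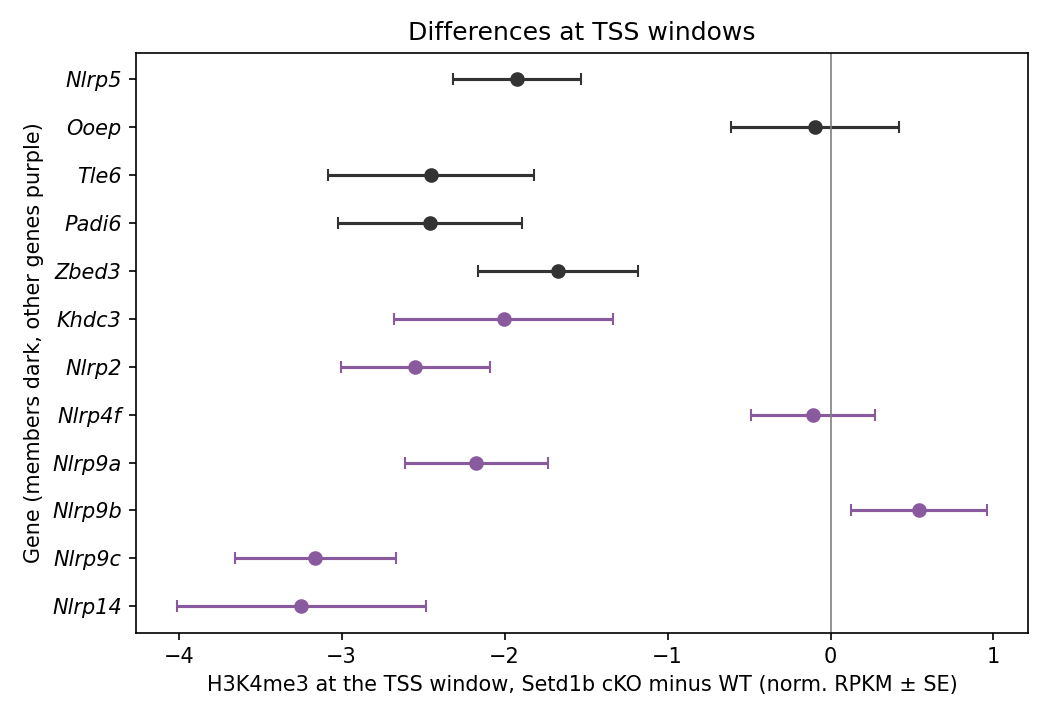
Difference in H3K4me3 at the TSS window (cKO minus WT, normalized RPKM, x axis) for the 5 members (dark) and 7 other components and NLRP genes (purple), with the SE from limma as error bars. Most points lie between -1.67 and -3.25, and Ooep, Nlrp4f and Nlrp9b lie near or above 0.

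Relatives of the members by family, which include the other Padi, Tle, Zbed and KH-domain genes, were examined in the same way. Of 16, limma called 0 in either direction, 3 were lower and 1 higher without overlap, against 8.99% and 15.2% of the protein-coding TSS windows, and the median difference was -0.298. Khdc1a had -1.45 ± 0.336 (SE, limma adjusted p = 0.0745) and Tle3 had 2.30 ± 0.691 (SE, limma adjusted p = 0.145).

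Markers of granulosa, theca and stroma cells, which surround the oocyte in the ovary, had higher means in the cKO. The TSS windows of 8 granulosa genes were all higher in the mean in the cKO, 5 of them without overlap. Of the protein-coding TSS windows, 54.2% were higher in the mean and 15.2% without overlap. Foxl2 was called as higher (2.85 ± 0.529 SE, limma adjusted p = 0.0415), but not by edgeR (adjusted p = 0.744), and in 1 of 6 fits without a library. Their summed level was 36.1 to 37.8 in the cKO libraries and 27.1 to 28.3 in the WT libraries. All 4 theca and stroma genes were higher in the mean, with sums of 18.1 to 21.2 against 13.5 to 14.7, and 4 blood and endothelium genes gave overlapping sums of 7.97 to 8.39 and 6.90 to 9.10. Of 10 oocyte markers, limma called 0, 5 were lower without overlap (8.99% of the protein-coding TSS windows were) and 1, Gdf9, was higher, in a window it shares with Uqcrq. The part of these markers in the differences at the members was not tested, and in pooled oocytes a change in every cell cannot be told apart from a change in some.

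The genes whose TSS windows were most like each member over the 6 libraries, by Euclidean distance among 48576 TSS windows, were Rbm38 with Gm20490 (distance 0.761) and Gm14272 (0.776) for Nlrp5. For Tle6 they were Siglece (0.737) and Tatdn2 (1.11), and for Padi6 Ccdc115 with Imp4 (1.08) and Ctnnbl1 (1.33). For Zbed3 they were Gm9378 (0.788) and Eif2s2 (1.01). For Ooep they were a window shared by Gm10074 and 3 other gene records (0.538) and Psap (0.628), which likewise differed little between the genotypes, at 6.37 in the WT and 6.17 in the cKO.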

How the data were processed

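H3K4me3 was profiled in 6 libraries and input chromatin in 4. Per the labels and the study's methods, the authors trimmed reads with Trim Galore 0.4.2, aligned them to GRCm38 with Bowtie2 2.2.9, removed low mapping qualities and windows of high input signal, left out 1 poor library of each genotype, and counted reads in 5 kb windows. The deposited H3K4me3 values are an RPKM-based score after enrichment normalization across the libraries. Input was deposited without that step, as a signal of reads in the window scaled to library size (RPM) and not divided by window length. In each library 100% of values lay within 0.05 of a whole number of reads above a constant, which gave back the read counts behind the deposited values.

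Genotypes were compared with limma 3.58.1 on the deposited scores, without an intensity trend, two-sided, over 544879 windows. The values of 1 gene were compared by exact permutation of the 6 libraries, which cannot go below 0.1. The tests were first run on simulated data. Alternatives were logarithms with pseudocounts of 1 and 0.1, an intensity trend, quantile normalization, a mean of at least 1, edgeR 4.0.16 on recovered counts of at least 10 reads, log2 of RPM plus 0.5, a replicate block and leaving out each library. Because the scale was set for each library across the genome, a change common to all windows would not be seen. Gene starts are from GENCODE M21, promoters from RefSeq, and the chromosome ends of the files match GRCm38.

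The members and lists were chosen with earlier results of these data known. Named were the 5 members at every library of the TSS window, the windows with the largest differences or called, the 2 nearest genes of each, and at most 3 genes a list, beyond which Khdc3, Nlrp4f and Nlrp9b were named after their values were seen. The contrast of Ooep with the other members, and windows around the genes, were chosen after values were seen. Pools of the same genotype are biological replicates per the labels. Read intervals are not given, and counts limit the precision.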

Additional observations from a re-analysis of the deposited data

How the results depend on the processing

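No paired design is stated, and only replicate numbers 1 and 4 occur in both genotypes. Deviations of same-numbered libraries correlated at 0.32 and 0.019. With a replicate block, 3 of the 22 member windows were called, all as lower, while the calls over all windows rose to 19755 lower and 13678 higher. The differences under the block were -1.85 at Nlrp5, -1.50 at Tle6, -2.78 at Padi6 and -2.23 at Zbed3, all called. At Ooep it was -0.565 and was not called (limma adjusted p = 0.644). The differences under the block rest on replicates 1 and 4 alone, since the other libraries have no same-numbered partner.

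An intensity trend called 2 member windows (Tle6 -2.45 and Padi6 -2.46), and testing only windows with a mean of at least 1 called 1 (Nlrp5 -1.92, adjusted p = 0.0439), where 0.851% of 410018 windows were called as lower. EdgeR on reads called 0 member windows. Logarithms called 0 and quantile normalization 1 of all windows, so their lack of member calls says nothing about the members. Averaged over the windows of every annotated transcript start, the differences were -0.61 at Nlrp5, -0.94 at Tle6, -1.08 at Padi6 and -0.79 at Zbed3, since further windows enter the mean. Leaving out libraries moved the TSS window difference within -2.10 to -1.62 for Nlrp5, -3.13 to -1.93 for Tle6, -2.93 to -1.82 for Padi6 and -2.09 to -1.15 for Zbed3. None of these was called, but 4 of the 6 fits called at most 1 window in the genome. For Ooep it ranged from -0.59 to 0.38, and was positive without cKO replicate 4 (0.383) and without WT replicate 1 (0.173). The mean over Zbed3 windows became negative with its TSS window included (-0.276) and without cKO replicate 3 (-0.087), with a range of -0.087 to 0.391 over libraries left out. The cause was not tested. Of 174 alternative values, 158 were unchanged, 6 reversed direction, 7 were newly called and 3 changed the count of called member windows. Many of these values had no p-value, so only their direction was compared. Settings that called almost no window could hardly change a call. The single window of Ooep entered both as TSS window and as gene mean. The tally is therefore not a measure of robustness. With 40 to 240 reads in the TSS windows, fewer than 40 in at least 1 library of each of the 18 other member windows, and 3 libraries a genotype, small differences could not be resolved.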
